A study of Mus musculus with 4 samples.

Results

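The genes described here are 9 genes known to answer load or stretch in striated muscle: Ankrd1, Xirp1, Xirp2, Fhl1, Fhl2, Csrp3, Nrap, Rcan1 and Piezo1. They were chosen by name, for their known roles and with earlier results of these data known, and each matched 1 of the 27998 genes of the deposited tables. Of them, 1 encodes a muscle ankyrin repeat protein (Ankrd1), 4 encode LIM domain proteins (Fhl1, Fhl2, Csrp3 and Nrap) and 2 encode Xin repeat proteins (Xirp1 and Xirp2), while Rcan1 and Piezo1 belong to neither family.

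The study asked what right ventricular volume overload (RVVO) does to the right ventricle (RV) of prepubertal mice. A fistula between the abdominal aorta and the inferior vena cava (ACF) was made at postnatal day 7 (P7), and sham mice had the same operation without the puncture. Nuclei of frozen RV tissue were sequenced at P21 with 10X Genomics 3′ v3 chemistry, which counts each captured transcript once by its unique molecular identifier (UMI), in 2 sham and 2 RVVO libraries. All 4 libraries came from wild-type C57/BL6J mice. The methods speak of males or females without a sex per library, and describe injections of cyclosporine A or saline after surgery, which the labels of these libraries do not name. It was not stated whether a library is 1 mouse or a pool, so p-values measure the spread between these libraries, which may be technical.

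The sarcomere is anchored at the Z-disc, and cardiomyocytes (CMs) join end to end at the intercalated disc. Several proteins of these sites, among them muscle ankyrin and LIM proteins, are thought to sense strain and to move between the sarcomere and the nucleus, and their transcripts are classical reporters of cardiac load. Calcineurin and its feedback inhibitor Rcan1 form another load-answering pathway, and Piezo1 is a membrane channel that opens when the membrane is stretched.

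On GRCm38 (GENCODE vM21), Fhl2 lies on chromosome 1 at 43123074 to 43196984, Xirp2 on chromosome 2 at 67446002 to 67526614, Csrp3 on chromosome 7 at 48830398 to 48848033 and Piezo1 on chromosome 8 at 122481698 to 122551329. Xirp1 lies on chromosome 9 at 120013755 to 120023598, Rcan1 on chromosome 16 at 92391953 to 92470867, Ankrd1 and Nrap on chromosome 19 at 36111961 to 36120099 and 56320035 to 56390037, and Fhl1 on chromosome X at 56731787 to 56793346. All 9 are protein-coding. The whole of Xirp1 lies inside the annotated span of Cx3cr1, a chemokine receptor gene of macrophages, on the same strand, and the whole of Piezo1 lies opposite the gene model Gm20388. Nrap, Xirp2 and Rcan1 overlap annotated antisense genes (Gm17197, Gm13601 and Gm46555). For Piezo1, Nrap, Xirp2 and Rcan1 the UMIs are uncertain because the counting was not stated to use strand, and for Xirp1 because strand cannot separate it from Cx3cr1.

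RefSeq promoter windows on GRCm38.p6 matched 8 of the 9 genes, all but Xirp1, with 12 start sites in all. The 250 bases before each start were searched on both strands for CATTCC (the MCAT motif bound by TEAD factors), for TATAAA, and for the CArG motif of serum response factor and the motif of MEF2 factors. The stretches shown are those of Ankrd1, Xirp2 and Nrap, whose UMIs varied together from nucleus to nucleus, and of Fhl2, a gene with a match to CArG before each of its 2 starts. Capitals mark the matches, and all are written 5′ to 3′ on the strand of the gene. For Ankrd1 the window lies in exons annotated by GENCODE, so only the surroundings of its 2 MCAT matches are given.
Ankrd1, chr19:36120036-36120065, minus strand: tcactgccaaaGGAATGaccctctcacatt
Ankrd1, chr19:36119949-36119978, minus strand: acactaagtctGGAATGaaaattcacctgc
Xirp2, chr2:67445752-67446001, plus strand: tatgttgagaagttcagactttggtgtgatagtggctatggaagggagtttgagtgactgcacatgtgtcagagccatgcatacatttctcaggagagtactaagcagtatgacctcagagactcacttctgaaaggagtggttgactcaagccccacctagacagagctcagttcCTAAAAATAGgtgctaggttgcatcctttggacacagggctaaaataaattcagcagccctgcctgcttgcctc
Nrap, chr19:56390039-56390288, minus strand: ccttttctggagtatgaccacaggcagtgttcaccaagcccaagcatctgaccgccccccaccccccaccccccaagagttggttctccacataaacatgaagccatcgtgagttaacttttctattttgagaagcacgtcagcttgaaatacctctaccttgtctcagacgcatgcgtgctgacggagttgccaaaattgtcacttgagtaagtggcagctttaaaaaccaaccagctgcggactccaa
Fhl2, chr1:43163962-43164211, minus strand: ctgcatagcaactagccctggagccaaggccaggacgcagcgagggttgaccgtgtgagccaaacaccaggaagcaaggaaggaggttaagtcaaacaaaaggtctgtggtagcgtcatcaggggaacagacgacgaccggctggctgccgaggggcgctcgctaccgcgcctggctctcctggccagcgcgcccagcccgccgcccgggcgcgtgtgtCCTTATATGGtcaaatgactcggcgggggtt

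The capitals of Ankrd1 are MCAT matches read from the opposite strand, those of Xirp2 a MEF2 match 74 to 65 bases before the start, and those of Fhl2 a CArG match 31 to 22 bases before the start. MCAT letters stood in 12.6%, the MEF2 motif in 2.92%, CArG in 1.47% and TATAAA in 12.4% of the 32851 windows of that length. The window of Nrap held none of the 4 motifs, which says only that these letters are not in it.

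The tables held 53090 barcodes, with 51010039 to 64739206 UMIs a library. After filtering, 43210 nuclei remained, and any 2 libraries shared 28 to 70 barcodes. CMs were taken as nuclei with Ryr2, the calcium release channel of the sarcoplasmic reticulum, at 1% or more of their UMIs, which gave 2362 and 2815 CM nuclei in the sham and 2741 and 3743 in the RVVO libraries, 11661 in all. The CM nuclei of RVVO 1 were the deepest, with a median of 8595 UMIs against 4915 to 5069 in the other 3 libraries. Xist stood at 1515 and 1473 UMIs on the counts-per-million scale (CPM, UMIs of a gene relative to all UMIs of those nuclei) in the CM nuclei of the sham and at 0.993 and 0.703 in those of the RVVO libraries (TMM-scaled), while the Y-linked gene Uty showed the opposite, so that the sex of the mice and the surgery cannot be told apart. The other nuclei were named by cluster from marker lists, with score thresholds set after the clusters were seen, as endothelial-like, fibroblast-like, macrophage-like, mural-like (pericytes and smooth muscle), epicardial-like and glial-like. CM markers had UMIs in all of these, for example Tnnt2 at 854 to 1579 CPM in endothelial-like nuclei and 2604 to 3261 in CMs. Beside the highest of the endothelial-like, fibroblast-like, macrophage-like and mural-like levels of a library, the CM level was lower for 2 CM markers. It was 0.565 to 0.757 times that level for Actc1 and 0.532 to 0.723 times for Myl2. The other CM markers, like Tnnt2, were higher in CMs in each library.

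Levels are given in CPM, taken over all UMIs of that lineage in that library. Among the LIM genes, Fhl2, a co-regulator that also sits at the Z-disc, had 6326 and 5638 CPM in the sham and 5072 and 4419 in the RVVO CMs, 5982 ± 487 against 4746 ± 462 (mean ± SD, n = 2 libraries each). Each RVVO library was lower than either sham library. After scaling by edgeR's trimmed mean of M values (TMM), Fhl2 in RVVO was 0.734-fold that in sham, a log2 fold change of -0.45 ± 0.15 (SE), with an unadjusted p = 0.0273 that did not hold over all genes tested (edgeR quasi-likelihood test, Benjamini-Hochberg adjusted p = 0.953). Fhl1, the LIM protein that binds titin and is altered in X-linked myopathies, stood at 86.0 and 82.8 in sham and 74.1 and 69.9 in RVVO CMs, again with no overlap of the groups. Its log2 fold change was -0.34 ± 0.13 (edgeR, unadjusted p = 0.0421, adjusted p = 0.953), and as an X-linked gene it is one for which the sex difference between the groups stands beside the surgery.

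Nrap, which links the terminal actin filaments to the intercalated disc during myofibril assembly, had 286 and 338 CPM in sham and 235 and 271 in RVVO CMs. The groups did not overlap, and the log2 fold change was -0.41 ± 0.16 (edgeR, unadjusted p = 0.0527, adjusted p = 0.953). Csrp3, the muscle LIM protein of the Z-disc, stood at 273 and 276 in sham and at 253 and 338 in RVVO CMs, so that the RVVO libraries lay on either side of the sham libraries. Its fitted log2 fold change was 0.00 ± 0.19.

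Ankrd1, the cardiac ankyrin repeat protein that binds titin and the Z-disc and enters the nucleus, was the member with the largest standard error in CMs. Its level was 90.3 and 124 CPM in sham and 64.7 and 122 in RVVO CMs, 107 ± 23.9 against 93.6 ± 40.8. The log2 fold change of -0.30 ± 0.36 turned to 0.11 when RVVO 1 was left out. Xirp2, an actin-binding protein of the intercalated disc, had 189 and 184 in sham and 288 and 174 in RVVO CMs: RVVO 1 stood above the rest, and the log2 fold change of 0.19 ± 0.24 turned to -0.18 without that library. Xirp1, its paralog, was rare at 16.2 and 17.4 in sham and 20.3 and 21.1 in RVVO CMs, with both RVVO libraries above both sham libraries and a log2 fold change of 0.19 ± 0.17.

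Rcan1, which restrains calcineurin and is itself induced by it, had 76.7 and 101 CPM in sham and 88.2 and 106 in RVVO CMs, overlapping groups with a log2 fold change of 0.01 ± 0.21. Piezo1 was at 15.1 and 14.3 in sham and 21.8 and 18.8 in RVVO CMs, without overlap, with a log2 fold change of 0.35 ± 0.17 (edgeR, unadjusted p = 0.0873, adjusted p = 0.953). That difference was not found in the clusters that scored highest for CM markers, as described with the clusters.

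**Figure D1:**
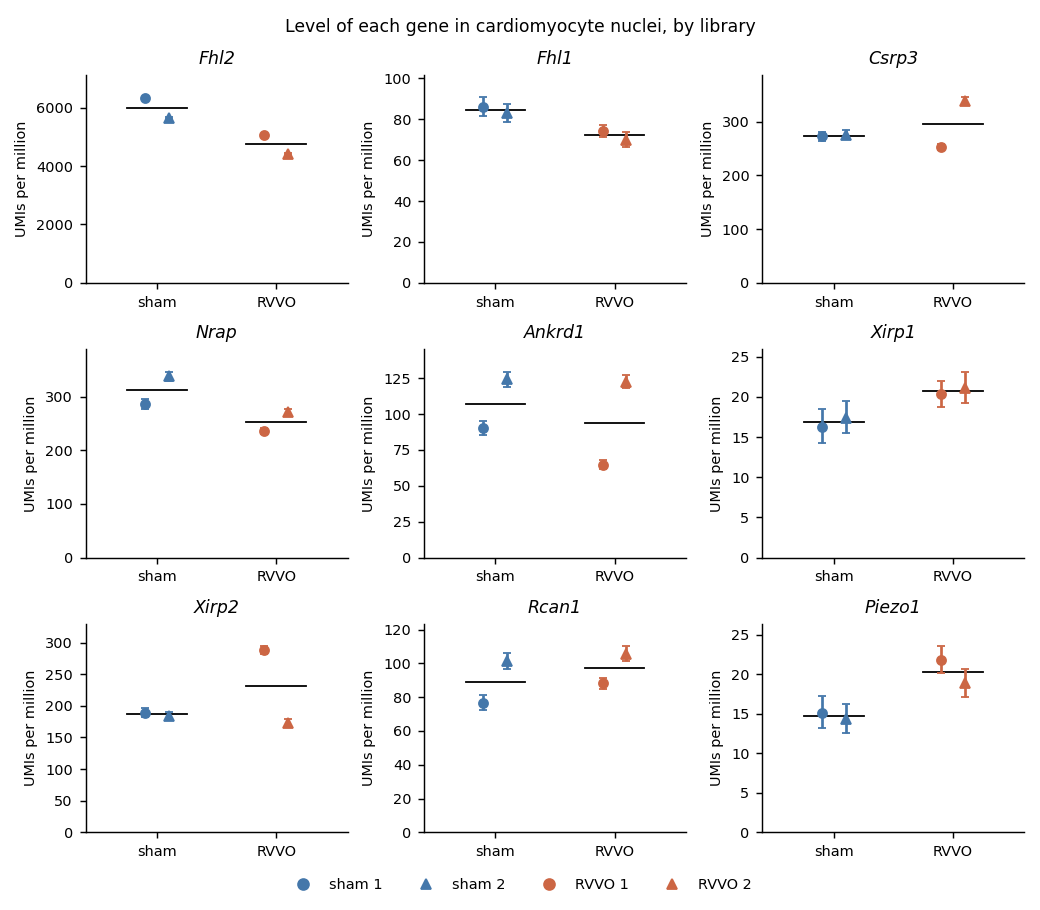
Level of the 9 genes in CM nuclei in CPM (vertical axes start at 0), with 1 point per library, vertical bars for the exact 95% Poisson interval (counting error only) and a horizontal line at the mean of the 2 libraries of a group. Fhl2, Fhl1 and Nrap lie lower and Xirp1 and Piezo1 higher in both RVVO libraries, and the RVVO libraries of Ankrd1, Csrp3 and Xirp2 lie far apart.

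In the test across 14813 genes in CMs, 0 of the 9 members passed an adjusted p of 0.05 in edgeR (lowest adjusted p = 0.953), where 0.0473% of all genes tested did (7 genes). At an unadjusted p under 0.05 there were 2 members, Fhl2 and Fhl1, beside 748 of all genes (5.05%). DESeq2 called 35 genes and no member. For 5 of the 9 members both RVVO libraries lay on the same side of the sham range, 3 below and 2 above. Of all genes tested, 33.3% did so (16.7% below and 16.6% above). The median log2 fold change of the members was 0.00 and that of all genes 0.01. Of the 7 called genes, 6 were Xist, Tsix and Y-linked genes and the seventh was Snx17.

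The same 9 genes were compared as the share of CM nuclei with at least 1 UMI, each nucleus thinned to 1000 UMIs. Fhl2 was found in 92.7% and 91.2% of sham and 93.0% and 90.9% of RVVO CM nuclei, overlapping groups at shares close to 100%. The Nrap share was 23.99% and 25.3% in sham and 20.8% and 22.6% in RVVO, a mean difference of -2.94 percentage points (two-sided exact permutation test, p = 0.333, the smallest that 2 against 2 libraries allow). The Fhl1 share was 7.95% and 7.65% in sham and 7.08% and 5.88% in RVVO. In endothelial-like nuclei at the same depth, 20.3% to 30.1% had an Fhl2 UMI, 5.36% to 7.22% an Nrap UMI and 16.1% to 25.7% a Csrp3 UMI. The Csrp3 share in CMs, 24.3% to 30.7%, was thus close to that in cells that should lack it. The median depth before thinning was higher in CMs, and the unthinned Csrp3 shares were 66.8% to 83.7% in CMs and 28.4% to 50.8% in endothelial-like nuclei.

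The 9 genes fell into 3 patterns over the lineages, which are given as descriptions since Ryr2 and the clusters chose the nuclei. In the first, Fhl2 and Nrap were CM genes: the CM level of Fhl2 was 15.3 to 19.3 times and that of Nrap 3.92 to 6.13 times the highest level among endothelial-like, fibroblast-like, macrophage-like and mural-like nuclei of the same library. Xirp2 (1.59 to 2.58 times), Rcan1 (1.64 to 1.78 times) and Ankrd1 (1.26 to 2.07 times) were also highest in CMs in each library, by less. In the second, Csrp3 (1.02 to 1.70 times) and Xirp1 (0.810 to 1.504 times) had CM levels close to the highest of the other lineages. These ranges overlap that of Ankrd1, and Csrp3 was still highest in CMs in each library. Over the lowest of the other lineages the CM level was 1.26 to 2.31 times for Csrp3 and 1.71 to 2.60 times for Xirp1. In the third, Fhl1 and Piezo1 were highest outside CMs, and their levels differed between the other 4 lineages by 4.67 to 6.92 times and by 10.6 to 13.04 times.

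**Figure D2:**
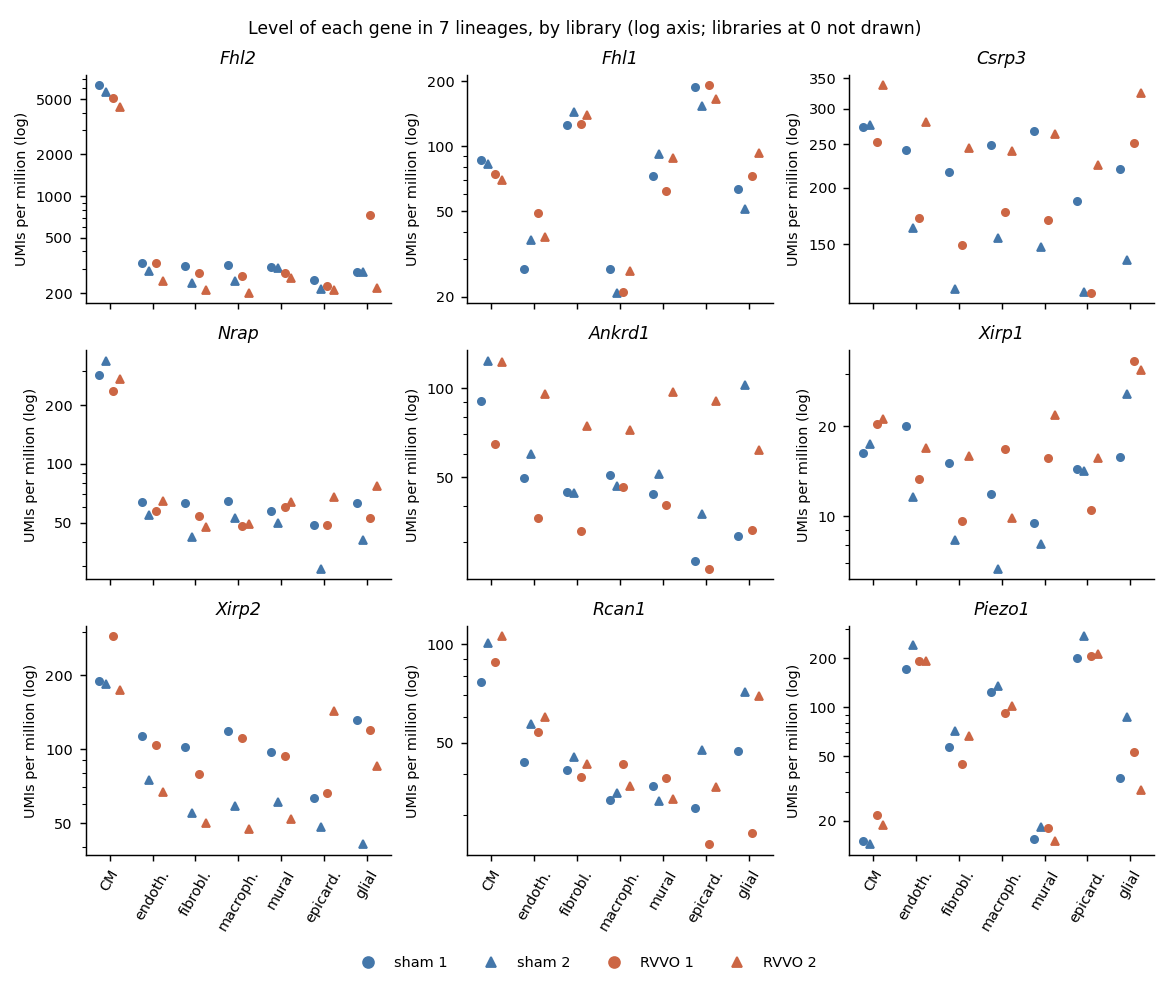
Level of the 9 genes in CPM on a log axis in CM, endothelial-like, fibroblast-like, macrophage-like, mural-like, epicardial-like and glial-like nuclei, with 1 point per library. Fhl2 and Nrap stand out in CMs, Piezo1 in endothelial-like and epicardial-like nuclei and Fhl1 in epicardial-like and fibroblast-like nuclei, and Ankrd1 is highest in RVVO 2 in 5 of the 6 lineages outside CMs.

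Levels of muscle genes outside CMs were read against Myl2, the ventricular myosin light chain, which had 2931 and 1724 CPM in endothelial-like nuclei of the sham and 2217 and 2678 in those of the RVVO libraries, more than in CMs of the same libraries. Per 100 Myl2 UMIs, Csrp3 had 8.28, 8.29, 8.39 and 9.002 UMIs in the endothelial-like, fibroblast-like, macrophage-like and mural-like nuclei of sham 1, against 16.3 in its CMs. In RVVO 2 these 4 ratios were 10.4, 10.8, 11.1 and 10.4, against 20.7 in CMs. The ratio thus stayed nearly the same in all 4 lineages of a library and was higher in CMs.

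Ankrd1 had 1.48 to 1.71 UMIs per 100 Myl2 UMIs in the 4 other lineages of sham 1 and 3.27 to 3.85 in those of RVVO 2, against 5.40 and 7.49 in the CMs. For Fhl2 the 4 ratios were 10.5 to 12.03 in sham 1 and 9.11 to 10.2 in RVVO 2, against 378 and 270 in CMs. In droplet data, free RNA from 1 source keeps its genes in 1 ratio in every cell type of a library. In the 4 lineages compared, the ratios of Csrp3, Nrap and Fhl2 were of this kind, and those of Ankrd1 and Xirp2 nearly so. The ratios were not computed in epicardial-like and glial-like nuclei, where single libraries stood out. Fhl2 had 283 and 286 CPM in sham and 735 and 217 in RVVO glial-like nuclei. Xirp2 had 63.3 and 48.3 in sham and 66.3 and 143 in RVVO epicardial-like nuclei. The part of free RNA in these levels was not tested. For Xirp1 the ratios spread more within a library. In sham 1 they were 0.684, 0.578, 0.399 and 0.319 in endothelial-like, fibroblast-like, macrophage-like and mural-like nuclei, on 181, 40, 11 and 16 UMIs, and in RVVO 2 they were 0.634, 0.6998, 0.456 and 0.863, on 99, 77, 18 and 26 UMIs.

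**Figure D3:**
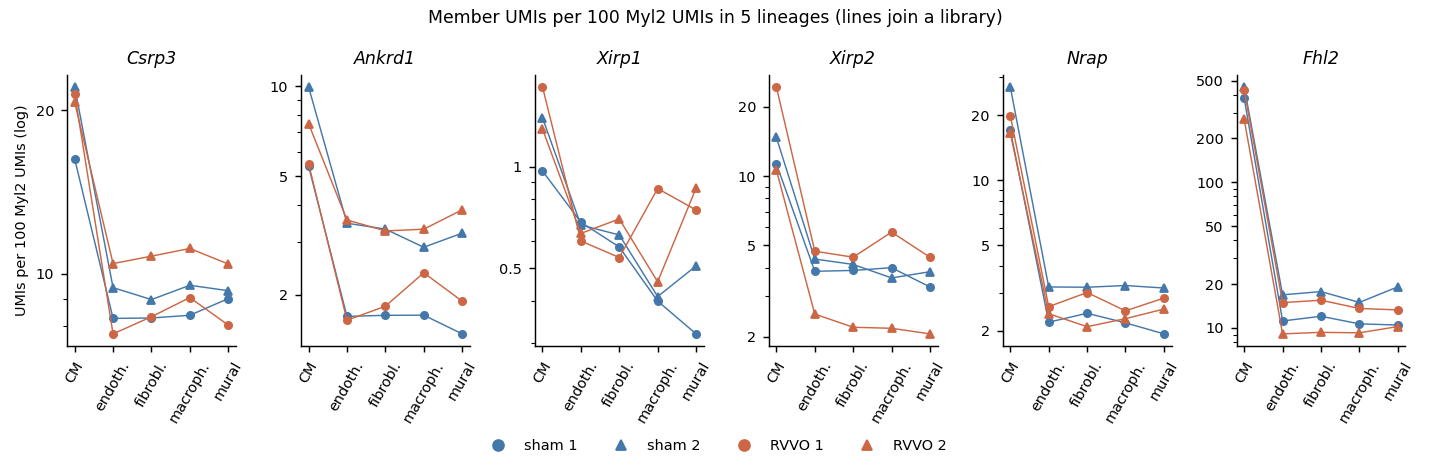
UMIs of 6 muscle genes per 100 Myl2 UMIs (log axis) in CM, endothelial-like, fibroblast-like, macrophage-like and mural-like nuclei, with lines joining the points of a library. Over the lineages drawn outside CMs the lines of Csrp3, Fhl2, Nrap and Xirp2 are nearly flat, and all 6 genes are higher in CMs, Fhl2 by the most.

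Piezo1 had a clear order of lineages. Epicardial-like nuclei had 201 to 272 CPM and endothelial-like nuclei 172 to 239, ranges that overlap. Macrophage-like nuclei followed with 124 and 135 in sham and 92.6 and 101 in RVVO, then fibroblast-like nuclei with 44.6 to 71.3. Mural-like nuclei (15.1 to 18.4) and CMs (14.3 to 21.8) were lowest and their ranges overlapped. Piezo1 thus stood above its CM level in 3 of the 4 other lineages tested.

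Within the endothelial-like nuclei, Piezo1 was highest in the lymphatic-like cluster, at 328 and 419 in sham and 376 and 310.5 in RVVO. The endocardial-like cluster had 123 and 203 in sham and 128 and 161 in RVVO, and the largest endothelial-like cluster 168 and 225 in sham and 176 and 192 in RVVO. In each of these the 2 groups overlapped. Endothelial-like Piezo1 as a whole was at 172 and 239 in sham and 191 and 191 in RVVO (log2 fold change -0.19 ± 0.16, edgeR adjusted p = 0.841). In macrophage-like nuclei each RVVO library was lower than either sham library, with a log2 fold change of -0.44 ± 0.18 (edgeR, unadjusted p = 0.0371, adjusted p = 0.690).

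Fhl1 was highest in epicardial-like nuclei, at 187 and 154 CPM in sham and 192 and 166 in RVVO. Fibroblast-like nuclei had 125 and 145 in sham and 127 and 140 in RVVO, all below each epicardial-like library. CMs (69.9 to 86.0) and mural-like nuclei (61.7 to 91.8) overlapped in the middle, above endothelial-like nuclei (26.8 to 49.1) and macrophage-like nuclei (20.9 to 27.0), whose ranges touched. Among endothelial-like nuclei, the endocardial-like cluster had 99.9 and 121 in sham and 140 and 80.5 in RVVO, where the largest endothelial-like cluster had 16.6 to 27.1. In both clusters the groups overlapped. The lymphatic-like cluster had 96.6 and 83.7 in sham and 76.6 and 58.2 in RVVO, without overlap, on 12 to 32 UMIs a library. The endocardial-like cluster made up 7.93% and 7.11% of the endothelial-like nuclei in sham and 16.7% and 24.4% in RVVO. The lymphatic-like cluster made up 2.42% and 2.32% in sham and 4.83% and 2.95% in RVVO. The log2 fold change of Fhl1 was 0.38 ± 0.20 in endothelial-like nuclei as a whole (edgeR adjusted p = 0.641). The part of these larger shares in that value was not tested. In fibroblast-like nuclei the log2 fold change was -0.04 ± 0.13.

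Rcan1 was at 43.7 and 57.0 in sham and 53.9 and 60.01 in RVVO endothelial-like nuclei, and between 33.1 and 45.2 in fibroblast-like, macrophage-like and mural-like nuclei, where neighbouring lineages overlapped. Its log2 fold changes lay between -0.10 and 0.18 in these 4 lineages. In the lymphatic-like cluster Rcan1 had 145 and 83.7 in sham and 91.0 and 97.0 in RVVO.

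In the tests outside CMs, 0 of the 9 members passed an adjusted p of 0.05 in edgeR in endothelial-like (0.238% of all genes called), fibroblast-like (0.101%), macrophage-like (0.0881%) and mural-like nuclei (0.102%). The lowest adjusted p of a member was 0.585, that of Xirp1 in mural-like nuclei, where it stood at 9.49 and 8.06 CPM in sham and 15.7 and 21.8 in RVVO (log2 fold change 1.06 ± 0.34, edgeR, unadjusted p = 0.0122). These levels rest on only 16 and 18 UMIs in sham and 27 and 26 in RVVO. At an unadjusted p under 0.05 there were 2 values of the 9 members over these 4 lineages, Xirp1 in mural-like and Piezo1 in macrophage-like nuclei. Of all genes tested in a lineage, 4.26% to 9.62% (550 to 1294 genes) had an unadjusted p under 0.05. DESeq2 called 17 to 236 genes in these lineages, and none of Piezo1, Rcan1 and Fhl1, the members followed there.

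**Figure D4:**
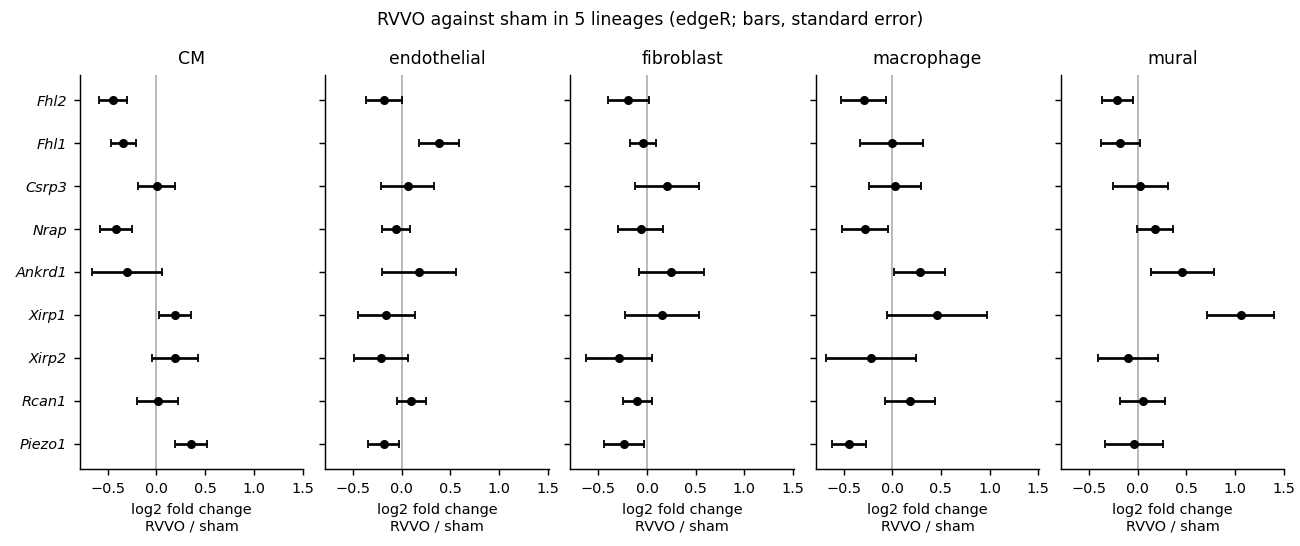
Log2 fold change of RVVO over sham for the 9 genes in CM, endothelial-like, fibroblast-like, macrophage-like and mural-like nuclei (edgeR, points with their standard error). Fhl2, Fhl1 and Nrap lie below 0 in CMs with bars that do not reach it, and Piezo1 lies above 0 in CMs and below 0 in macrophage-like nuclei.

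Whether the RVVO effect in CMs differed from that in another lineage was tested as an interaction over library sums, with the library as a block. No member passed an adjusted p of 0.05 in edgeR in any of the 4 tests (lowest adjusted p = 0.348), in which 0.00662%, 0.0265%, 0.0% and 0.0% of 15117 genes were called against endothelial-like, fibroblast-like, macrophage-like and mural-like nuclei. The Piezo1 effect in CMs exceeded that in macrophage-like nuclei by 0.76 ± 0.24 on the log2 scale (edgeR, unadjusted p = 0.00658, adjusted p = 0.348). The Fhl1 effect in CMs was -0.77 ± 0.24 relative to that in endothelial-like nuclei (edgeR, unadjusted p = 0.00609, adjusted p = 0.540). In the endothelial-like sums the endocardial-like and lymphatic-like shares were larger in both RVVO libraries. The Ankrd1 effect in CMs was -0.45 to -0.77 relative to those in the other 4 lineages (edgeR, adjusted p = 0.527 to 0.834). Outside CMs the 2 RVVO libraries lay far apart for Ankrd1, at 36.4 and 95.3 CPM in endothelial-like and 40.1 and 97.3 in mural-like nuclei. The part of free RNA in these levels was not tested, and no library was left out of the interaction. In each of the 4 tests, which share the CM libraries, 2 of the 9 members had an unadjusted p under 0.05, where 5.85% to 9.34% of all genes did. Of these 8 values, 3 were of Piezo1 and 3 of Ankrd1, and the mixed nuclei that held much of the CM Piezo1, described with the clusters, were part of the CM sums. DESeq2 was not run on the interaction.

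Most CM nuclei lay in 4 clusters named from CM markers (10717 nuclei, 91.9%), and 246 in an atrial-like cluster whose highest marker score was atrial. Another 34 lay in clusters named for other lineages. A further 664, called mixed, lay in clusters left unnamed because they scored for markers of 2 lineages. In 2 of these clusters CM genes led, and 83.0% of 283 and 42.5% of 835 nuclei were CMs by Ryr2. Another, of 3818 nuclei with endothelial and erythroid markers, had 1.89%. The 2 clusters led by CM genes held only 9 and 11 nuclei of sham 2, which had 56 mixed CM nuclei. The mixed nuclei had a median of 11952.5 UMIs against 5538 in the 4 CM-like clusters. They made up 6.69% and 1.99% of the CM nuclei in the sham and 11.2% and 3.85% in the RVVO libraries. Of all CM UMIs, over which CM levels are taken, they held 13.5% and 1.87% in sham and 27.4% and 7.24% in RVVO. They remained after 6.97% to 12.5% of the barcodes of a library had been removed as doublets by score.

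Piezo1 was concentrated in the mixed nuclei. It had 46.9 and 32.2 CPM there in the sham and 56.1 and 55.7 in the RVVO libraries, against 9.52 and 14.3 in sham and 8.37 and 15.98 in RVVO in the 4 CM-like clusters. The mixed nuclei held 41.8% and 4.202% of the Piezo1 UMIs of sham CMs and 70.6% and 21.4% of those of RVVO CMs. Pecam1, an endothelial gene, stood at 116 to 197 in the mixed nuclei and 15.6 to 27.5 in the CM-like clusters. Over the whole CM nuclei all 8 endothelial markers had UMIs in each library, at a summed level of 569 and 251 CPM in sham and 597 and 430 in RVVO, and the 8 macrophage markers at 76.5 and 31.5 in sham and 249 and 88.9 in RVVO. Without the atrial-like and mixed clusters, a choice made after the data were seen, the Piezo1 log2 fold change was -0.03 ± 0.34 and the groups overlapped.

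The lower level of Fhl2 was found in the CM-like clusters too, with 6640 and 5813 CPM in sham and 5610 and 4624 in RVVO. In each of the 4 CM-like clusters the RVVO libraries were the lower pair, as were those of 0.891% of all genes. The clusters divide the same 4 libraries and are not replicates. The shares of all genes given here cover genes of every level, and those among genes of a like level were not computed. In the cluster that held most nuclei of RVVO 1 the Fhl2 level was 7234 and 6485 in sham and 5846 and 5285 in RVVO. In the largest cluster it was 5445 and 5233 in sham and 5164 and 4260 in RVVO, so that RVVO 1 lay just below the sham libraries. The other 2 clusters held only 38 and 39 nuclei of RVVO 1. The members were left out of the variable genes used for clustering. Fhl2 was still among the leading genes of each of these clusters, and the values within clusters are a description. Nrap and Fhl1 lay lower in both RVVO libraries in 2 of the 4 clusters each, where 14.1% of all genes lay lower in at least 2. Xirp1 lay higher in 3, where 5.11% of all genes lay higher in at least 3. These 3 include the 2 clusters with 38 and 39 nuclei of RVVO 1, where RVVO 1 had only 4 and 11 Xirp1 UMIs. Xirp2 and Csrp3 lay higher in 1, where 49.4% lay higher in at least 1. Ankrd1, Rcan1 and Piezo1 overlapped in all 4. Most CM nuclei of sham 1 (1559 of 2362) lay in a cluster that held 39 of the 2741 CM nuclei of RVVO 1. Without the atrial-like and mixed nuclei the log2 fold changes were -0.33 ± 0.17 for Fhl2, -0.31 ± 0.12 for Nrap, -0.27 ± 0.14 for Fhl1 and 0.36 ± 0.14 for Xirp1 (edgeR, lowest adjusted p = 0.786), and 4 of the 9 members did not overlap, where 35.8% of all genes did not.

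**Figure D5:**
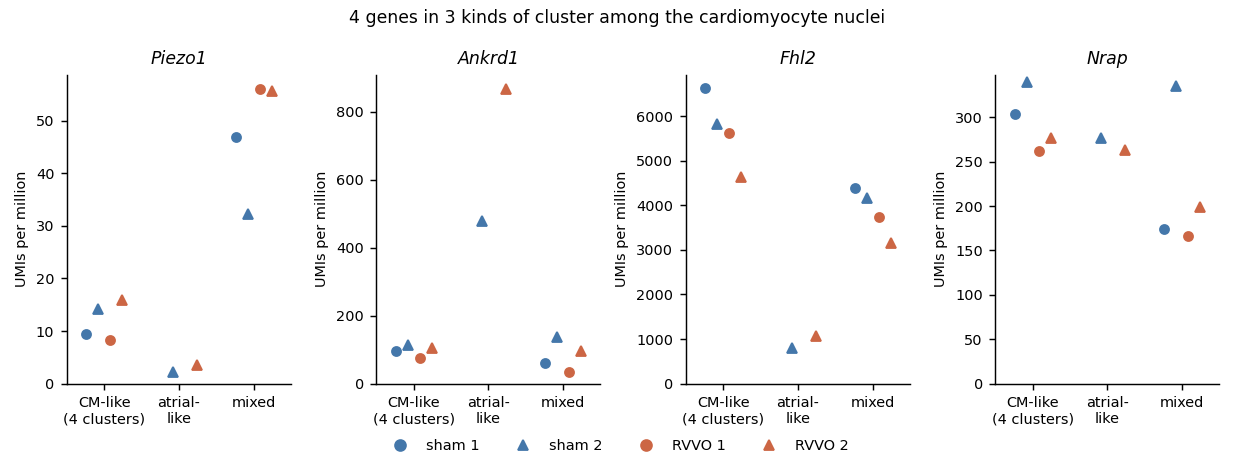
Level of Piezo1, Ankrd1, Fhl2 and Nrap in CPM (axes start at 0) in the 4 CM-like clusters, the atrial-like cluster and the mixed clusters among the CM nuclei, with 1 point per library that had at least 20 nuclei. Piezo1 is highest in the mixed and Ankrd1 in the atrial-like nuclei, where Fhl2 is lowest.

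In the atrial-like nuclei Ankrd1 stood at 477 CPM in sham 2 and 867 in RVVO 2, against 114 and 103 in the CM-like clusters of the same libraries. Fhl2 stood at 802 and 1070, against 5813 and 4624. Piezo1 was at 2.18 and 3.46, on 1 and 2 UMIs, against 14.3 and 15.98. Fhl1 had 161 and 96.9 there against 80.4 and 69.3, and Xirp2 351 and 203 against 176 and 177. Sham 1 had none of these nuclei and RVVO 1 had 19 of them, so no group comparison could be made. They held 10.6% of the Ankrd1 UMIs of the CMs of sham 2 and 18.3% of those of RVVO 2, from 3.59% and 3.37% of the CM nuclei.

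From nucleus to nucleus, Ankrd1 UMIs were more uneven than those of members of a like level. In CM nuclei thinned to 2000 UMIs its variance was 1.98, 4.08, 2.55 and 2.91 times its mean in sham 1, sham 2, RVVO 1 and RVVO 2, where counting alone gives about 1. The same ratio was 1.04 to 1.14 for Rcan1 and 1.11 to 1.21 for Fhl1. In the 4 CM-like clusters alone, without the atrial-like nuclei rich in Ankrd1, the ratio of Ankrd1 was 1.97, 3.41, 2.63 and 2.07, with at most 16 UMIs in a nucleus. The highest nucleus held 21 Ankrd1 UMIs of 2000, in RVVO 2. Fhl2, the member of by far the highest level, had a ratio of 4.72 to 5.68 with up to 62 UMIs in a nucleus. Among the other members Xirp2 came next after Ankrd1, at 1.47 to 2.78 times its mean with up to 23 UMIs in a nucleus. Ankrd1 and Xirp2 thus had a few nuclei with many UMIs in sham and RVVO libraries alike.

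Nuclei of the CM-like clusters with 2 or more Ankrd1 UMIs after thinning (69 and 98 in sham, 61 and 107 in RVVO) were set beside those with none, as a description of nuclei picked by Ankrd1. Xirp2 per nucleus was 1.79, 4.44, 2.37 and 3.23 times as high in sham 1, sham 2, RVVO 1 and RVVO 2. Nrap was 1.30, 2.80, 1.63 and 1.69 times as high, and Csrp3 1.71, 1.63, 1.45 and 1.18 times. Nppb, the brain natriuretic peptide released by strained CMs, was 4.16, 4.12, 5.23 and 2.11 times as high on few UMIs. Fhl2 (1.02 to 1.14 times) and Myh7 (0.875 to 0.983 times), the slow myosin heavy chain, were close to equal. Xirp1 (0.451, 2.57, 0.642 and 1.29 times) and Piezo1 (0.738, 1.64, 3.03 and 2.47 times), both of few UMIs, lay on both sides of 1. Rcan1 (2.17, 1.67, 1.04 and 1.58 times), Fhl1 (1.17, 1.65, 1.31 and 1.24 times) and Nppa (2.21, 2.30, 3.13 and 1.26 times) were above 1 as well. Acta1, of very few UMIs, was at 0, 1.74, 1.22 and 0 times. Apart from Xirp1 and Piezo1, every member compared was thus above 1 in each of the 4 libraries, Fhl2 only just. The share of all genes above 1 in the same nuclei was not computed, so whether the members stand out was not tested.

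The genes most like each member were sought across CM nuclei thinned to 2000 UMIs, as the mean Pearson correlation over the 4 libraries (2068 to 3593 nuclei a library, 4336 genes compared). All correlations were weak, in sparse counts of nuclei that share a library and its depth, and they are given as a description. For Ankrd1 these genes were Creb5 (mean r = 0.13, from 0.06 to 0.22 in single libraries), Sorbs2 (0.12) and Tlr4 (0.11). For Xirp2 they were Creb5 (0.10), Sorbs2 (0.09) and Ankrd1 (0.09), and for Nrap Creb5, Xirp2 and Sorbs2 (0.08 each), so that Creb5 and Sorbs2 stood among the first 3 of Ankrd1, Xirp2 and Nrap. Of all pairs of members, Ankrd1 with Xirp2, Xirp2 with Nrap and Ankrd1 with Nrap had the 3 highest values (0.09, 0.08 and 0.07).

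Fhl2 was most like Cacna1c (0.18), Fgf13 and Pde4d (0.15 each), values that were 0.09, 0.09 and 0.08 in the 4 CM-like clusters alone. Csrp3 was most like Myl2 (0.07), Ankrd1 and Gm42418 (0.06 each). Fhl1 was most like Dmd, Pdlim3 and Ppp2r5c, Rcan1 like Slc8a1, Mid2 and Xirp2, and Xirp1 like Cox6a2, Tln1 and Nploc4, all at mean r of 0.03 to 0.05. Piezo1 was most like Mecom (0.08), Ebf1 (0.07) and Flt1 (0.07), the last an endothelial receptor gene, and in the CM-like clusters alone these values were 0.02, 0.01 and 0.00.

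Other genes of the same pathways were read in CMs from lists chosen with earlier results of these data known. None of their genes passed an adjusted p of 0.05 in edgeR, and 3 had an unadjusted p under 0.05, all of them among the muscle ankyrin and Z-disc genes. Of 18 such genes 17 were tested (not Ankrd2), with a median log2 fold change of -0.28, and the RVVO pair was lower for 8 and higher for 2 (16.7% and 16.6% of all genes). Actn2, the Z-disc actinin, stood at 2364 and 2583 TMM-scaled CPM in sham and 1232 and 1458 in RVVO CMs (log2 fold change -0.88 ± 0.15, edgeR, unadjusted p = 0.00187, adjusted p = 0.953). Mypn, a Z-disc partner of Ankrd1, had 977 and 1000.1 in sham and 587 and 667 in RVVO (-0.66 ± 0.13). Trim63, a muscle ubiquitin ligase, was at 483 and 631 in sham and 286 and 395 in RVVO (-0.71 ± 0.22), and Bag3, a chaperone partner of the Z-disc, at 238 and 366 in sham and 198 and 232 in RVVO (-0.49 ± 0.24).

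For the other lists the median log2 fold changes lay between -0.07 and 0.02, beside 0.01 for all genes. Beside the counts given below, the RVVO pair was higher for 16.6% and lower for 16.7% of all genes. The median log2 fold change of the 17 other LIM genes was -0.07, with 4 above and 3 below, among them Tes (0.72 ± 0.42), Lmcd1 (0.36 ± 0.20), Csrp2 (0.36 ± 0.22) and Pdlim5 (-0.36 ± 0.19). The 12 calcineurin and NFAT genes had a median of 0.02 with 2 above and 3 below, among them Nfatc1 (0.40 ± 0.17), Rcan3 (0.27 ± 0.24), Cabin1 (-0.18 ± 0.15) and Dyrk1a (-0.15 ± 0.12). The 13 other mechanosensitive channel genes had a median of 0.02 with 0 above and 4 below: Trpm4 (-0.42 ± 0.23), Lrrc8a (-0.35 ± 0.19), Tmem63a (-0.21 ± 0.22) and Tmem63b (-0.15 ± 0.13).

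Of the 14 load and stretch response genes, 1 lay above and 2 below (16.6% and 16.7% of all genes), with a median of -0.05. Egr1, an immediate early gene, had 0.701 and 1.66 TMM-scaled CPM in sham and 1.74 and 3.91 in RVVO CMs (log2 fold change 1.24 ± 0.61), Cyr61 had a log2 fold change of -0.24 ± 0.22 and Myh7 one of -0.06 ± 0.11. Nppa and Nppb, the natriuretic peptide genes of strained CMs, overlapped between the groups.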

How the data were processed

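The deposited gene by barcode tables held whole-number UMI counts, which the authors made with Cell Ranger and STAR on mm10. The submitters' processing notes name Cell Ranger 3.0.1 and Seurat 3.0.2, whereas the file headers name version 5.0.0, and whether counting used strand was not given in the sources used here. Barcodes needed 200 genes or more and less than 10% of UMIs from mitochondrial genes, and the highest doublet scores were removed at 0.8% of barcodes per 1000 barcodes (scanpy 1.11.5, Python 3.11.15). CMs were nuclei with Ryr2 at 1% or more of UMIs, and the other lineages were clusters (2000 variable genes, 30 components, 15 neighbours, resolution 1) named from markers.

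Raw counts were summed per library and lineage and tested with edgeR 4.0.16 (R 4.3.3; TMM, filterByExpr, quasi-likelihood, Benjamini-Hochberg, threshold 0.05), with DESeq2 1.42.0 as an alternative. Shares were compared in nuclei thinned to 1000 UMIs. Poisson intervals are exact at 95% and cover counting error only. The members and lists were chosen with earlier results of these data known. Named genes were all 9 members, up to 4 genes per list with the largest absolute log2 fold change among those whose groups did not overlap, and the 3 genes most correlated with each member. Scripts were tested on simulated data. Alternatives were other normalizations, filters, CM rules, depths, no doublet removal, the replicate block and leaving out each library. Replicate numbers were shared between the groups without a stated pairing.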

Additional observations from a re-analysis of the deposited data

How the results depend on the processing

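Of 227 member values under alternatives, 201 kept their direction, 26 reversed and 0 were called (lowest adjusted p = 0.297 in CMs and 0.511 elsewhere, edgeR or DESeq2). In CMs, Fhl2 (-0.51 to -0.39), Fhl1 (-0.35 to -0.34), Nrap (-0.56 to -0.27), Xirp1 (0.11 to 0.26) and Piezo1 (0.28 to 0.42) kept their log2 direction when 1 library was left out, while Ankrd1 ranged from -0.88 to 0.11, Xirp2 from -0.18 to 0.48, Csrp3 from -0.26 to 0.23 and Rcan1 from -0.20 to 0.25. Piezo1 reversed to -0.094 in clusters named cardiomyocytes, to -0.012 with no doublet removal and to -0.033 without the atrial-like and mixed clusters, a choice made after seeing the data. With Ryr2 at 0.5% or more, Csrp3 was -0.070 and Rcan1 -0.013, and with DESeq2 Csrp3 was -0.0034. Without 1 library, endothelial-like Rcan1 ranged from -0.062 to 0.27 and Piezo1 from -0.39 to 0.040, Fhl1 from -0.11 to 0.040 in fibroblast-like and -0.21 to 0.21 in macrophage-like nuclei, and in mural-like nuclei Piezo1 from -0.22 to 0.10, Rcan1 from -0.11 to 0.18 and Fhl1 from -0.41 to 0.039. Mural-like Piezo1 was 0.35 in nuclei thinned to 1000 UMIs. The share differences turned to 3.50 (Ankrd1), 3.48 (Fhl1), 2.64 (Fhl2) and 5.85 (Nrap) percentage points with no thinning, where RVVO 1 is deepest, and that of Fhl2 to 0.15 at 2000 UMIs. The causes of the other reversals were not tested. DESeq2 called 35, 236, 44, 23 and 17 genes in CM, endothelial-like, fibroblast-like, macrophage-like and mural-like nuclei, against 7, 32, 13, 9 and 11 with edgeR, and thinning gave 52 in endothelial-like nuclei. Without 1 library, where the lone sample is assumed to vary like the other group, these counts ranged from 4 to 7, 13 to 76, 5 to 126, 29 to 119 and 9 to 124. With the replicate number as a block, 7, 10, 9, 13 and 39 genes were called, Csrp3 in CMs was -0.016 and Fhl1 in macrophage-like nuclei 0.00037. With 2 pairs, replicate 2 minus replicate 1 correlated between the groups at 0.337 over 14813 genes in CMs, and the labels state no pairing, so that whether the numbers pair the libraries was not settled. The block changed no call of a member. With library totals in place of TMM the median log2 fold change of all genes in CMs was 0.12, against 0.01 with TMM. Fhl1 in macrophage-like nuclei could not be fitted with thinned sums, since it did not pass the filter. Xirp1 and Piezo1 rest on few UMIs in CMs, and the sex of the mice moved with the surgery.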
